A study of Mus musculus with 9 samples.

Results

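A set of 10 genes that report on or restrain the ERK kinase pathway was followed in mouse cells during conversion of embryonic stem cells (ESC) toward extraembryonic endoderm (XEN) by the transcription factor Sox17. They are the phosphatase genes Dusp4 and Dusp6, the Sprouty genes Spry1, Spry2 and Spry4, the Sprouty-related genes Spred1 and Spred2, the ETS factor genes Etv4 and Etv5, and the immediate-early gene Egr1. The 10 genes were taken by symbol from a table of 37975 gene rows. Each symbol matched 1 row, and all 10 passed the filter of at least 1 FPKM in some library, as did 15082 rows in all. FPKM scales the fragments of a gene by its length and by library size, so levels of different genes are compared here per transcript length.

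RNA sequencing covered 9 libraries, 1 for each group. R1 ESC are a wild-type line grown on fibroblast feeders with serum and the cytokine LIF, and IM8AR is a wild-type XEN line, a stem cell line of the extraembryonic endoderm, grown in serum with medium conditioned by fibroblasts. Sox17-ESC carry a Sox17 gene that doxycycline (dox) switches on, and were sampled without dox and after 7, 21, 35 and 49 h and 6 days with dox at 100 ng/ml under ESC conditions. The description of the day 6 library includes SORT, and nothing says by what it was sorted. Sox17-XEN cells are described as dox-independent. They had spent 30 days in dox and 30 days free of it, in an order that the wording leaves unclear. All 7 Sox17 libraries carry the same overexpression genotype and the same line code, so each result on the course rests on 1 engineered line. Sox17-XEN and the wild-type XEN line have different origins.

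Fibroblast growth factor (FGF) and other ligands bind receptor tyrosine kinases, which act through Ras, Raf and MEK to phosphorylate the kinase ERK. Active ERK raises transcription of early-response genes such as Egr1 and of ETS factor genes, and it also raises its own brakes: Dusp proteins remove phosphate from ERK, and Sprouty and Spred proteins act upstream of it. In the early embryo FGF4 made by epiblast cells drives neighbouring inner cells to primitive endoderm through ERK, and in ESC the same ligand promotes exit from the naive state. The messenger level of these genes is widely used as a readout of ERK signalling, but protein and phosphorylation were not measured here.

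Sox17 itself stood at 0.163 FPKM in R1 ESC and 0.909 without dox, at 283, 281, 191 and 151 FPKM from 7 to 49 h, at 71.1 at day 6, 101 in Sox17-XEN and 239 in wild-type XEN. Summed FPKM of 14 primitive endoderm markers was 306 to 1350 in R1 ESC and the course up to 49 h, 10200 at day 6, 2500 in Sox17-XEN and 9930 in wild-type XEN. These markers include the induced gene Sox17 itself, which gave 283 of the 648 FPKM at 7 h. The sum of 16 pluripotency markers was 2330 to 5120 up to day 6, against 395 in Sox17-XEN and 174 in wild-type XEN. Summed FPKM of 22 fibroblast markers ranged from 64.3 in wild-type XEN to 3740 at 49 h, and none of these markers was listed at 0 in any library, though in wild-type XEN 8 of 22 reached 1 FPKM. These sums leave out failed estimates, which affect at most 2 markers of a list in a library. Single genes carry much of these sums. At day 6, in a library that the labels call ESC, Dppa5a was at 1730 FPKM and Pou5f1 at 325 (723 without dox). Sox2 was at 1.84 and Nanog at 1.89 (131 and 169 without dox). By at least 1 log2 unit, 10 of 15 pluripotency markers were lower than without dox and 3 were higher, against 12.7% and 17.6% of all genes. The higher ones were Klf4 (91.9 FPKM against 41.6), Klf5 (93.1 against 34.2) and Tbx3 (76.8 against 12.9). Sparc was at 6060 FPKM at day 6 and has no valid value in Sox17-XEN. Lama1, at 1170 FPKM at day 6, has none in either XEN-type line, and Col4a1 has none at day 6 or in wild-type XEN. The endoderm sums of these libraries thus rest on different genes and cannot be set beside each other. The depth of each library relative to R1 ESC was 61.8% to 127%, estimated from the steps between low values, and absolute depth is unknown. The authors' lower confidence bound was 0 for all 90 values of the 10 genes and the upper bound was 2.02 to 7.62 times the value, so no member's intervals separate any libraries. In such bulk RNA, fewer cells of a type and less RNA per cell cannot be told apart.

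The 10 genes did not move as a block. Dusp4 was higher from 21 h to day 6, but lowest of all in Sox17-XEN, and Egr1 was lower from 7 to 49 h. For Dusp6, Spry1 and Etv4 the range of values at 21 to 49 h overlapped that of the uninduced ESC lines. The Spry1 range (9.12 to 11.8 FPKM) ran to both sides of the uninduced values (10.3). Day 6 brought low levels of Dusp6, Spred1, Etv5 and Spry4, and the XEN-type lines had low Spry1, Spry4 and Etv5. The span from the lowest to the highest library was 2.28-fold for Spred2, 2.41-fold for Spry2, 5.74-fold for Spred1, 8.85-fold for Etv4, 9.73-fold for Dusp6, 10.3-fold for Spry1, 14.7-fold for Dusp4, 19.7-fold for Spry4, 47.5-fold for Etv5 and 49.7-fold for Egr1.

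**Figure D1:**
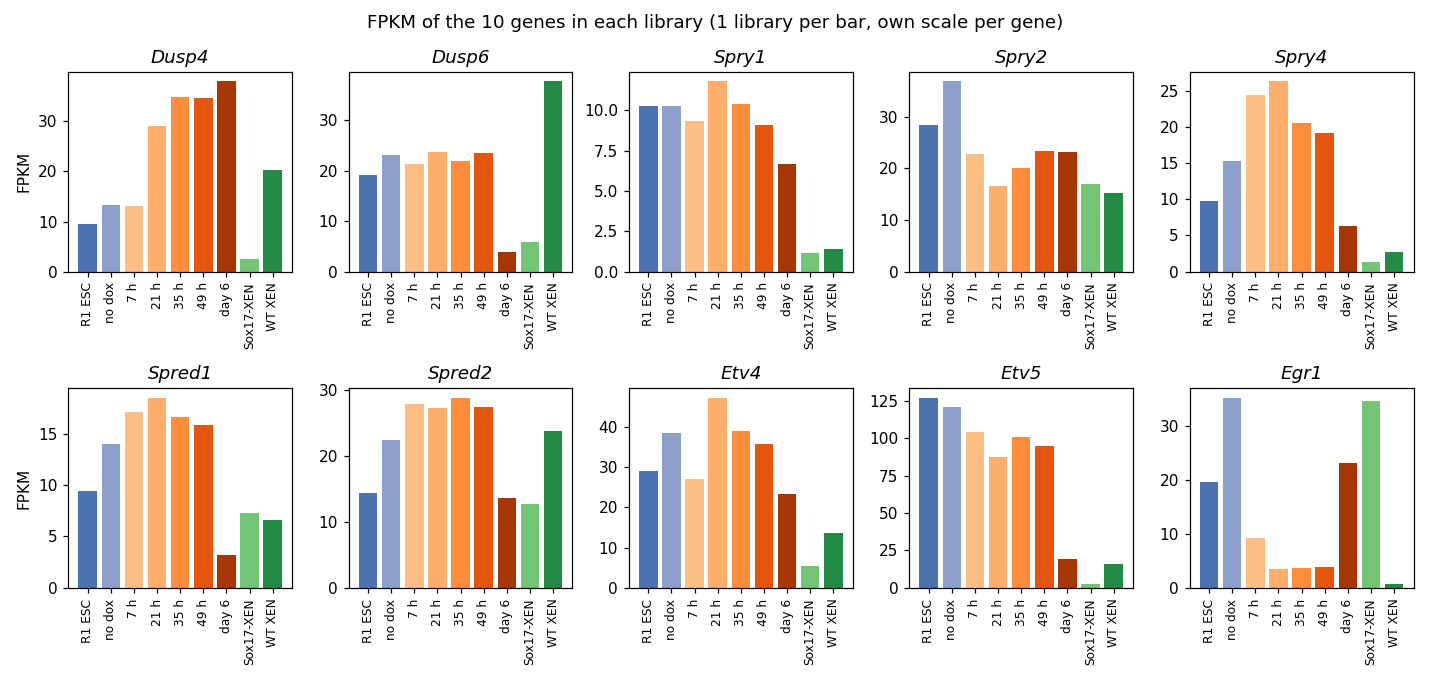
FPKM of each gene in each of the 9 libraries, 1 library per bar, with 1 panel and its own FPKM axis from 0 for each gene; no error bar exists because each group has 1 library. The Egr1 bars are low from 21 to 49 h (3.55 to 3.91 FPKM) and in wild-type XEN (0.71), while the Dusp4 bars from 21 h to day 6 (29.1 to 38.0) stand above both uninduced ESC libraries (9.46 and 13.4).

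The sequence just upstream of the start was read for Spry1 and Etv5, shown because both were low in both XEN-type lines, and for Dusp6, shown because it was not low in wild-type XEN. Windows of 250 bases before the annotated start, from RefSeq on GRCm38.p6, were used for 6 of the 10 genes. These are Dusp6, Spry1, Spry2, Spred1, Spred2 and Etv5, the last with a pair of starts. No window was found for Dusp4 and Etv4, and Spry4 and Egr1 were left out by the selection. Each is printed 5′ to 3′ on the strand of the gene, and capitals mark the core letters bound by ETS factors, GGAA or its reverse complement TTCC.
Spry1 chr3:37639697-37639946 (+): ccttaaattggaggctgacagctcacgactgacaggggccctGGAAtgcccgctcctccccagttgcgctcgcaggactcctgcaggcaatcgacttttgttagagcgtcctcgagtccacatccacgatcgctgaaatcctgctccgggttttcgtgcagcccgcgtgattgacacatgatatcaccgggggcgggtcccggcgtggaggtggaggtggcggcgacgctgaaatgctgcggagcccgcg
Etv5 chr16:22438369-22438618 (-): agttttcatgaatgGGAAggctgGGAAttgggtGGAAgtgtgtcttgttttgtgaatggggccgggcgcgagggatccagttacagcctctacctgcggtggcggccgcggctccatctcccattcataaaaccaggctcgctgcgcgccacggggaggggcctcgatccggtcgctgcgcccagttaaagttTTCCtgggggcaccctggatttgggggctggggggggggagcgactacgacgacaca
Dusp6 chr10:99262981-99263230 (+): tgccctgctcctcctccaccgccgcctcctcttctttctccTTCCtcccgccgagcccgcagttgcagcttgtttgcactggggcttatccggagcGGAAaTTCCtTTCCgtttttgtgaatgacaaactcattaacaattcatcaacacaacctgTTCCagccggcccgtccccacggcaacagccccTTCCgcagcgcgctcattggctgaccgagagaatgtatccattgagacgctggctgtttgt
The count of GGAA on both strands was 1 in Spry1, 4 in this Etv5 window and 6 in Dusp6, and it was 0 in the window of the other Etv5 start. GGAA occurred in 6 of the 7 windows, and in 93.4% of all 32851 promoter windows of the same length, so most windows of either kind hold it. The letters ACAAT, a core bound by SOX factors, occurred in 1 of 7 windows, that of Dusp6, against 27.7% of all windows. TGACGTCA was in 0 of 7 (1.55% of all), GCGTGGGCG, the letters bound by EGR factors, in 0 of 7 (0.536%), and the CArG box of serum response factor in 0 of 7 (1.47%). Egr1, Spry4, Dusp4 and Etv4 have no window among the 7, so these counts say nothing of them. A match is a description of letters and not a binding site. The windows were GC-rich, at 62.4% for Spry1, 62.0% and 71.2% for Etv5 and 56.4% for Dusp6 against a median of 52.4% over all windows.

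Dusp4 and Dusp6 encode dual-specificity phosphatases that inactivate ERK, Dusp4 in the nucleus and Dusp6 in the cytoplasm. Dusp4 (ENSMUSG00000031530, mm9 chromosome 8, 35870351-35882948) was at 9.46 FPKM in R1 ESC, 13.4 without dox, 13.1, 29.1, 34.9 and 34.7 after 7, 21, 35 and 49 h, 38.0 at day 6, 2.59 in Sox17-XEN and 20.3 in wild-type XEN. The 4 libraries from 21 h to day 6 were all above both uninduced lines, by 2.17-fold to 2.84-fold over the line without dox, while Sox17-XEN was the lowest of the 9. Dusp4 rose by 1.46 log2 units (SE 0.18) when the libraries at 21, 35 and 49 h were compared with the 2 ESC lines without dox (limma on log2(FPKM + 1), adjusted p = 0.0362). That call depended on single libraries: the adjusted p was 0.0865 without R1 ESC, 0.0913 without 21 h, 0.218 without 35 h and 0.128 without 49 h (limma), with the direction kept, and 0.116 without the filter on low values. These are successive times of 1 course and not replicates.

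Dusp6 (ENSMUSG00000019960, mm9 chromosome 10, 98725865-98730122) was at 19.1 FPKM in R1 ESC, 23.2 without dox, 21.4, 23.8, 21.9 and 23.5 at 7, 21, 35 and 49 h, 3.87 at day 6, 5.81 in Sox17-XEN and 37.7 in wild-type XEN. The values up to 49 h stayed close together and overlapped those of the uninduced lines (limma, 21 to 49 h, 0.13 log2 units, SE 0.12, adjusted p = 0.548). Day 6 was 5.99-fold and Sox17-XEN 3.99-fold below the line without dox, whereas wild-type XEN was 1.97-fold above R1 ESC. The ratio of Dusp4 to Dusp6 in FPKM was 0.494 in R1 ESC, 0.578 without dox and 0.615 at 7 h, then 1.22, 1.59 and 1.47 from 21 to 49 h and 9.83 at day 6. In Sox17-XEN it was 0.446 and in wild-type XEN 0.54, close to the ESC lines, although the summed FPKM of both genes was 8.4 in the former and 58.0 in the latter.

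Sprouty proteins dampen receptor tyrosine kinase signalling upstream of ERK. Spry1 (ENSMUSG00000037211, mm9 chromosome 3, 37538869-37543520) was at 10.3 FPKM in both R1 ESC and the line without dox, 9.37, 11.8, 10.4 and 9.12 from 7 to 49 h, 6.66 at day 6, 1.14 in Sox17-XEN and 1.43 in wild-type XEN. Spry2 (ENSMUSG00000022114, mm9 chromosome 14, 106291166-106296036) was at 28.3 FPKM in R1 ESC, 36.8 without dox, 22.7, 16.5, 20.0 and 23.4 from 7 to 49 h, 23.2 at day 6, 17.0 in Sox17-XEN and 15.2 in wild-type XEN. For both genes the XEN-type lines lay below both ESC lines, and Spry2 was also below both in every dox library. Spry4 (ENSMUSG00000024427, mm9 chromosome 18, 38745922-38760922) was at 9.78 FPKM in R1 ESC, 15.3 without dox, 24.4, 26.3, 20.6 and 19.1 from 7 to 49 h, 6.33 at day 6, 1.34 in Sox17-XEN and 2.77 in wild-type XEN. Spry4 thus stood above both uninduced lines from 7 to 49 h and below both from day 6 on.

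Spry1 and Spry4 were lower in the 2 XEN-type lines than in the 2 ESC lines, by -2.31 log2 units (SE 0.30, limma adjusted p = 0.0209) and -2.16 (SE 0.43, adjusted p = 0.0415), while Spry2 at -0.96 (SE 0.24, adjusted p = 0.0587) did not pass. Against the same ESC lines the 21 to 49 h libraries gave 0.78 for Spry4 (SE 0.24, limma adjusted p = 0.146), -0.68 for Spry2 (SE 0.19, adjusted p = 0.134) and 0.01 for Spry1 (SE 0.14, adjusted p = 0.975), none of which passed. In this fit Spry4 reached 1.08 with an adjusted p of 0.0467 (limma) without the library lacking dox, leaving R1 ESC alone as the uninduced line. The summed FPKM of the 3 Sprouty genes was 48.3 in R1 ESC and 62.5 without dox, 51 to 56.4 from 7 to 49 h, 36.2 at day 6, 19.5 in Sox17-XEN and 19.4 in wild-type XEN. Spry4 made up 20.3% and 24.5% of that sum in the ESC lines, 37.1% to 48.2% from 7 to 49 h and 6.86% in Sox17-XEN. Spry2 made up 87.3% of it in Sox17-XEN and 78.4% in wild-type XEN, so the sum in these lines is mostly Spry2.

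**Figure D2:**
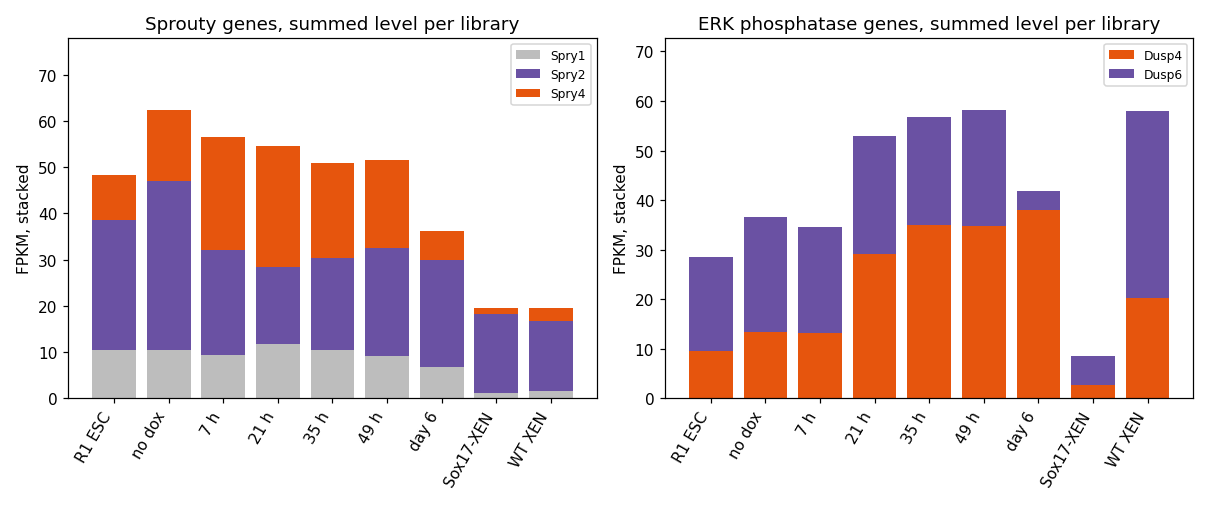
Stacked FPKM of the 3 Sprouty genes (left) and of Dusp4 and Dusp6 (right) in each of the 9 libraries, 1 library per bar, with axes from 0. The Sprouty bar shrinks to 19.5 and 19.4 FPKM in Sox17-XEN and wild-type XEN, mostly Spry2, while the phosphatase bar is 8.4 FPKM in Sox17-XEN and 58.0 in wild-type XEN.

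Spred1 and Spred2 encode Sprouty-related proteins that, with neurofibromin, keep Ras inactive at the membrane. Spred1 (ENSMUSG00000027351, mm9 chromosome 2, 116947110-117008015) was at 9.45 FPKM in R1 ESC, 14 without dox, 17.1, 18.5, 16.6 and 15.8 from 7 to 49 h, 3.21 at day 6, 7.32 in Sox17-XEN and 6.6 in wild-type XEN. Spred2 (ENSMUSG00000045671, mm9 chromosome 11, 19824378-19924029) was at 14.4 FPKM in R1 ESC, 22.5 without dox, 27.9, 27.3, 28.9 and 27.5 from 7 to 49 h, 13.6 at day 6, 12.7 in Sox17-XEN and 23.9 in wild-type XEN. Both genes were above both uninduced lines from 7 to 49 h, but those lines differed from each other by 0.53 and 0.61 log2 units, and neither gene passed the test at 21 to 49 h (limma, 0.52, SE 0.19, adjusted p = 0.196 and 0.60, SE 0.20, adjusted p = 0.165). Spred2 was the member that differed least between XEN-type and ESC lines (-0.04 log2 units, SE 0.42, limma adjusted p = 0.953), since it was 0.69 above R1 ESC in wild-type XEN and -0.78 from the line without dox in Sox17-XEN. For Spred1 the same comparison gave -0.66 (SE 0.32, limma adjusted p = 0.205).

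Etv4 and Etv5 encode related ETS factors of the PEA3 group, transcriptional targets of FGF signalling through ERK. Etv5 (ENSMUSG00000013089, mm9 chromosome 16, 22381382-22439792) was the most abundant of the 10 genes per length in both ESC lines and through 49 h, at 127 FPKM in R1 ESC, 121 without dox and 104, 87.2, 101 and 94.8 from 7 to 49 h. It was at 19.0 at day 6, 2.67 in Sox17-XEN and 16.0 in wild-type XEN, so the day 6 and XEN-type libraries were far below the other 6. Etv4 (ENSMUSG00000017724, mm9 chromosome 11, 101631056-101646685) was at 29.1 FPKM in R1 ESC, 38.3 without dox, 27.1, 47.2, 38.9 and 35.7 from 7 to 49 h, 23.3 at day 6, 5.33 in Sox17-XEN and 13.7 in wild-type XEN. The range of its values from 7 to 49 h overlapped that of the uninduced lines, and the day 6 and XEN-type values lay below.

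Etv5 was lower in the XEN-type than in the ESC lines by -3.98 log2 units (SE 0.80, limma adjusted p = 0.0415), the largest such difference among the 10 genes, while Etv4 at -1.84 (SE 0.49, adjusted p = 0.0699) did not pass. Sox17-XEN held 2.21% of the Etv5 level of its line without dox, and wild-type XEN 12.6% of that of R1 ESC. From 21 to 49 h the difference was -0.39 for Etv5 (SE 0.11, limma adjusted p = 0.124) and 0.26 for Etv4 (SE 0.18, adjusted p = 0.414), so neither passed in that window. The calls on Spry1, Spry4 and Etv5 needed both ESC lines: without R1 ESC or without the line lacking dox, limma called 0 of all genes tested. With R1 ESC left out, 1973 genes were lower and 1599 higher at an unadjusted p under 0.05, and with the line lacking dox left out 1983 and 2221. Without wild-type XEN 3 of the 10 were called lower (Spry1, Etv4 and Etv5), and without Sox17-XEN also 3 (Spry1, Etv5 and Egr1), so Spry4 was called in neither case (adjusted p = 0.0576 and 0.081, limma). Without the filter on low values Spry1 alone was called, and without the mean trend Etv5 had an adjusted p of 0.0508 (limma).

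Egr1 encodes a zinc finger factor that many cells switch on within minutes of ERK activation. Egr1 (ENSMUSG00000038418, mm9 chromosome 18, 35019477-35024763) was at 19.7 FPKM in R1 ESC, 35.3 without dox, 9.28, 3.55, 3.69 and 3.91 after 7, 21, 35 and 49 h, 23.1 at day 6, 34.7 in Sox17-XEN and 0.71 in wild-type XEN. The libraries from 7 to 49 h were all below both uninduced lines, and day 6 lay between those lines. Egr1 fell by 2.54 log2 units (SE 0.26) at 21 to 49 h against the 2 ESC lines without dox (limma adjusted p = 0.0275). The adjusted p was 0.0913 without 21 h, 0.179 without 35 h and 0.101 without 49 h (limma), with the direction kept, and 0.095 without the filter on low values. Against the line without dox, 21 h was 9.94-fold lower, and against R1 ESC it was 5.54-fold lower.

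The XEN-type lines differed widely in Egr1: Sox17-XEN was at 98.3% of its line without dox, and wild-type XEN at 3.61% of R1 ESC. Their pooled difference from the ESC lines was -1.81 log2 units (SE 1.59, limma adjusted p = 0.436). Sox17-XEN was 4.38 log2 units above wild-type XEN, the widest gap among the 10 genes between these lines. Fibroblast markers moved along with some of these values: 19 of 22 were higher by at least 1 log2 unit in Sox17-XEN than in wild-type XEN, with summed FPKM of 1040 and 64.3, and 15 of 22 were lower at 7 h than without dox, with sums of 1330 and 2650. At 49 h 3 of 22 were higher and 0 lower than without dox, and Egr1 was at 3.91. The fibroblast sum was then 3740, and the median marker was at 47.8 FPKM against 68.5 without dox. The part of fibroblast RNA in the Egr1 levels was not tested.

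The Egr1 course was set beside 29 other immediate-early genes at 7 h. Of these, 8 were lower and 1 was higher by at least 1 log2 unit than without dox, against 1.87% and 1.17% of all genes, and the counts at 21, 35 and 49 h were 5 lower and 1 higher of 28, 1 and 0 of 29, and 2 and 3 of 28, where the shares over all genes were 1.96% to 2.29% lower and 2.6% to 3.26% higher. Fos, which encodes a subunit of the AP-1 factor, was at 3.16 FPKM in R1 ESC, 3.52 without dox, 1.01, 0.671, 0.909 and 1.19 from 7 to 49 h, 37.5 at day 6, 18.9 in Sox17-XEN and 3.44 in wild-type XEN. Fos was below both uninduced lines from 7 to 49 h, as Egr1 was. In wild-type XEN, where Egr1 was lowest, Fos was close to the ESC lines, and at day 6 Fos was above every other library, which Egr1 was not. At 21 to 49 h against the ESC lines without dox, Fos was the 1 gene of 28 in this list that fell (-1.18 log2 units, limma adjusted p = 0.0396) and 0 rose. Over all genes 0.542% fell and 1.05% rose in that fit. Between the XEN-type and ESC lines 2 of 28 were lower (Klf2 at -4.41 and Arc at -2.15) and 2 were higher (Atf3 at 3.93 and Btg2 at 1.83) by limma, counts near the 8.08% and 11.1% of all genes. Klf2 is also a naive pluripotency factor and stands in the pluripotency list too.

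**Figure D3:**
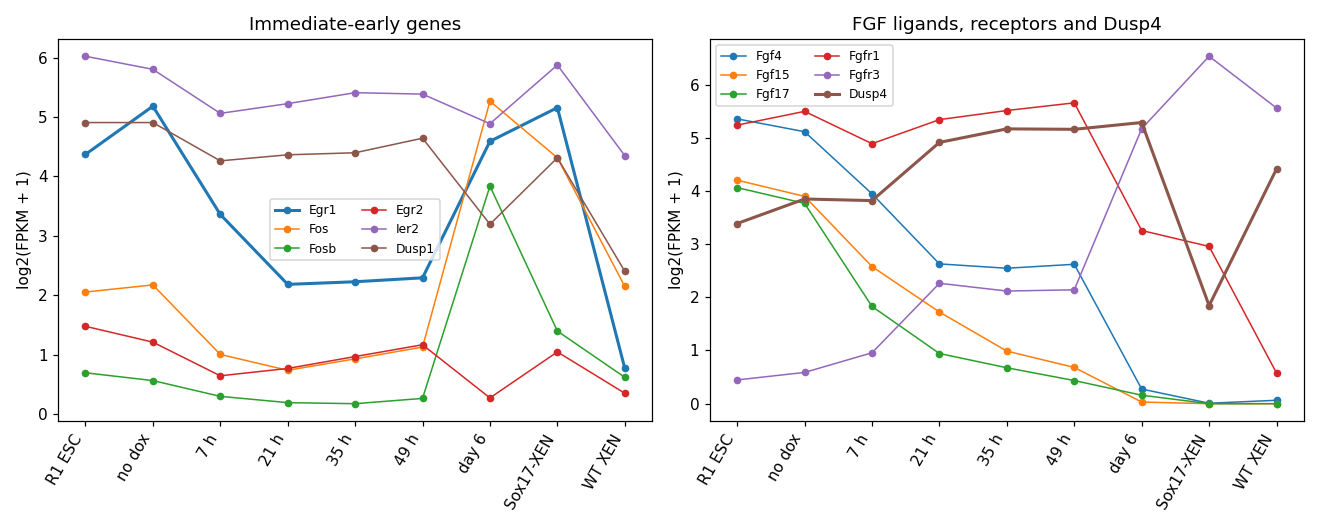
Levels as log2(FPKM + 1) in the 9 libraries, 1 point per library, for Egr1 with Fos, Fosb, Egr2, Ier2 and Dusp1 (left) and for the FGF genes Fgf4, Fgf15 and Fgf17, the receptors Fgfr1 and Fgfr3, and Dusp4 (right); the lines join libraries only to guide the eye. Egr1 and Fos are low from 7 to 49 h, Dusp4 stands higher from 21 h to day 6 and lowest in Sox17-XEN (2.59 FPKM), and Fgf4 is at 5.18 FPKM or below from 21 h to day 6 and in both XEN-type lines.

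Counted over the 10 genes, a difference of at least 1 log2 unit from the line without dox was seen lower in 1 gene and higher in 0 at 7 h, where 1.87% of all genes compared were lower and 1.17% higher. At 21 h 2 were lower (Egr1 and Spry2) and 1 was higher (Dusp4), against 1.96% and 3.12% of all genes. At 35 h 1 was lower and 1 higher (2.02% and 2.6% of all), and at 49 h again 1 and 1 (2.29% and 3.26%), Egr1 and Dusp4 each time. The median of the 10 differences was -0.12, 0.22, 0.01 and -0.04 after 7, 21, 35 and 49 h, beside -0.10, -0.06, -0.01 and 0.03 over all genes. The counts rest on Egr1, Spry2 and Dusp4, which differ in opposite directions, so the median does not describe them. With R1 ESC as reference the medians at 21, 35 and 49 h were 0.49, 0.30 and 0.28, beside 0.04, 0.08 and 0.11 over all genes.

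At day 6, 4 of the 10 were lower (Etv5 at -2.60, Dusp6 at -2.31, Spred1 at -1.84 and Spry4 at -1.15 log2 units) and 1 was higher (Dusp4 at 1.44), against 12.7% and 17.6% of all genes. In Sox17-XEN 7 of the 10 were lower than without dox and 0 higher, against 14.6% and 20.6% of all genes, and the genes not past 1 log2 unit were Spred1, Spred2 and Egr1. With R1 ESC as reference 3 were lower at day 6 (Spry4 at -0.56) and 6 in Sox17-XEN (Spry2 at -0.70). In wild-type XEN against R1 ESC 5 were lower (Egr1 at -3.60, Etv5 at -2.91, Spry1 at -2.21, Spry4 at -1.52 and Etv4 at -1.04) and 1 was higher (Dusp4 at 1.03), against 16% and 25.7% of all. The median of the 10 differences was -0.69, -1.92 and -0.94 in these 3 comparisons, beside 0.10, 0.17 and 0.21 over all genes. Each comparison sets 1 library against 1, so no test exists, and the day 6 and Sox17-XEN comparisons share the line without dox. Fibroblast markers were lower by at least 1 log2 unit in the same comparisons, 19 of 22 at day 6 (summed FPKM 239 against 2650 without dox), 13 of 22 in Sox17-XEN (1040) and 17 of 22 in wild-type XEN (64.3 against 1300 in R1 ESC), and their part in the results was not tested. The median difference over genes at 5 FPKM or more was 0.25 at day 6, 0.36 in Sox17-XEN and 0.44 in wild-type XEN. With each library rescaled to a median of 0, Dusp4 in wild-type XEN was at 0.61 and no longer past 1 log2 unit, while Spry2 there (-1.26) and Spred1 (-1.17) and Spred2 (-1.11) in Sox17-XEN were.

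**Figure D4:**
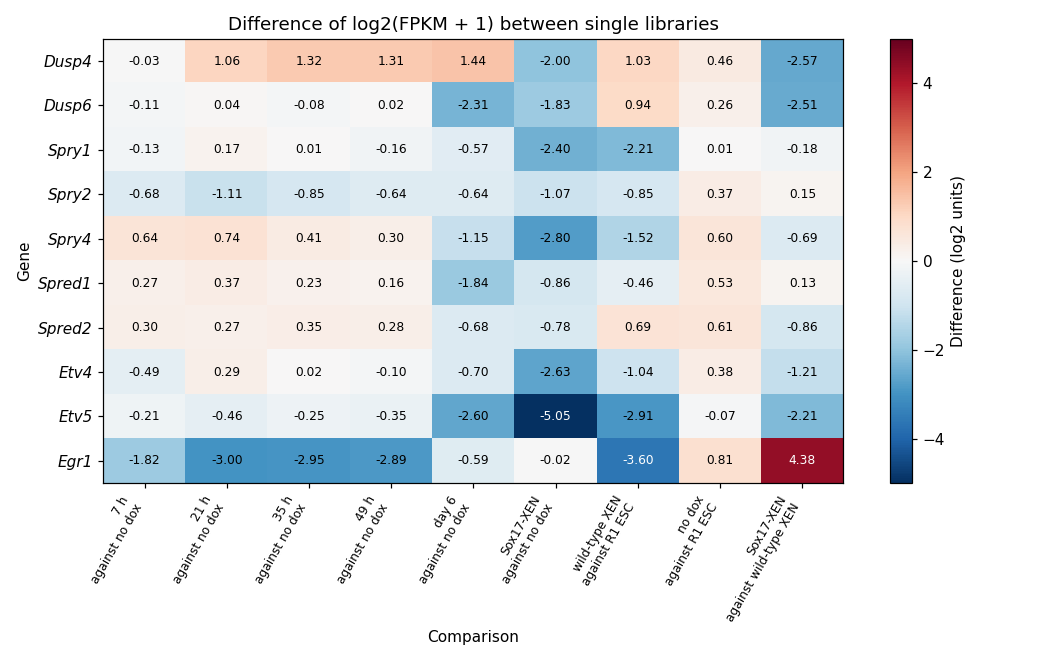
Differences of log2(FPKM + 1) for the 10 genes (rows) in the 9 comparisons (columns), each of 1 library against 1, with the value printed in each cell and colour from lower to higher. The columns for 7 to 49 h are pale except for Egr1 (-1.82 to -3.0), Dusp4 (1.06 to 1.32 from 21 h) and Spry2 at 21 h (-1.11), and the Sox17-XEN column is darkest for Etv5 (-5.05).

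The 2 uninduced ESC lines differed by less than 1 log2 unit for all 10 genes (0 lower and 0 higher, against 1.83% and 3.54% of all genes), with Egr1 at 0.81, Spred2 at 0.61 and Spry4 at 0.60 the widest apart. Over 8031 genes at 5 FPKM or more in both lines, the central 95% of differences ran from -0.90 to 1.01, which is a spread over genes and not the error of a gene. Between the XEN-type lines 4 of the 10 were lower in Sox17-XEN (Dusp4 at -2.57, Dusp6 at -2.51, Etv5 at -2.21 and Etv4 at -1.21) and 1 was higher (Egr1), against 6.76% and 9.09% of all genes. Spry1, Spry2 and Spred1 differed by -0.18, 0.15 and 0.13 between these lines.

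By limma over lines, 3 of the 10 were lower in the XEN-type lines and 0 higher, against 8.08% lower and 11.1% higher of 14925 genes tested, with a median of -1.38 log2 units over the 10 and 0.21 over all. At 21 to 49 h 1 was lower and 1 higher, against 0.542% and 1.05% of 14934 genes. Over all genes these calls came to 81 lower and 157 higher, but to 1 and 0 when the 21 h or the 35 h library was left out and to 13 and 33 without 49 h, and the calls named here for ligands, receptors and other lists share that limit. A slope over the rank of time in the 6 libraries from no dox to day 6 was called for 0 of the 10 and for 0% of 14933 genes in either direction (limma), although 1305 were lower and 2442 higher at an unadjusted p under 0.05. Among the 10 genes Dusp4 (0.33 log2 units per step, SE 0.07, limma adjusted p = 0.124) and Etv5 (-0.38, SE 0.15, adjusted p = 0.195) had an unadjusted p under 0.05.

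**Figure D5:**
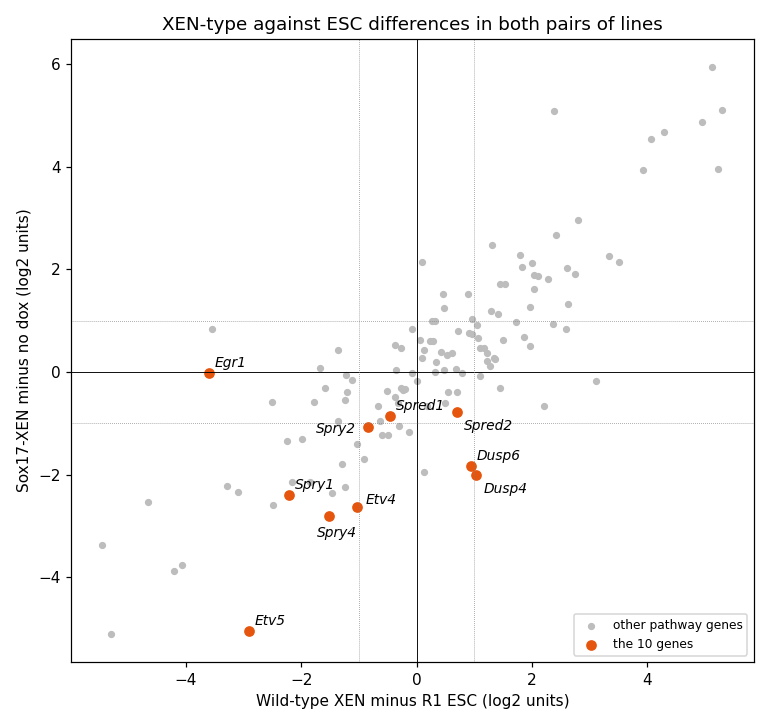
Difference of log2(FPKM + 1) between wild-type XEN and R1 ESC (horizontal axis) and between Sox17-XEN and the Sox17 line without dox (vertical axis) for the 10 genes (orange) and the other genes of the pathway lists (grey), with dotted lines at 1 log2 unit. Spry1, Spry4, Etv4 and Etv5 are low in both pairs, Dusp4, Dusp6 and Spred2 lie on opposite sides of 0, and Egr1 is low in the wild-type pair alone (-3.60 against -0.02).

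Upstream of the 10 genes, ligand and receptor genes moved in both directions. Fgf4, the FGF that ESC make themselves, was at 39.9 FPKM in R1 ESC, 33.6 without dox, 14.4, 5.18, 4.84 and 5.15 from 7 to 49 h, 0.21 at day 6, 0.00605 in Sox17-XEN and 0.0455 in wild-type XEN. It was thus far below the ESC lines from 21 to 49 h. In those libraries Egr1, Spry2 and Etv5 were also below both ESC lines, and the ranges of Dusp6, Spry1 and Etv4 overlapped those of the ESC lines. Dusp4, Spry4, Spred1 and Spred2 were above both, and a link of any of these genes to Fgf4 was not tested. Of 14 ligand genes tested, 4 fell at 21 to 49 h (Fgf17 at -3.23, Fgf15 at -2.92, Fgf4 at -2.64 and Fgf5 at -1.61 log2 units) and 0 rose, against 0.542% lower and 1.05% higher of all genes. In the XEN-type lines 7 were lower and 1 was higher (limma), against 8.08% and 11.1% of all. The ligand called higher was Fgf10 (2.82 log2 units, SE 0.46, limma adjusted p = 0.0291), at 0.56 and 1.86 FPKM in the ESC lines and 29.8, 11.6 and 16.8 at day 6, in Sox17-XEN and in wild-type XEN. Fgf3 was at 0.562 and 0.683 FPKM in the ESC lines and 10.9, 56.3 and 7.13 in those 3 libraries, and did not pass (limma, 3.74, SE 1.04, adjusted p = 0.074). The median of the ligand list was -0.09 at 21 to 49 h and -1.55 in the XEN-type lines, beside 0.04 and 0.21 over all genes.

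Of 15 receptor genes, 3 rose at 21 to 49 h (Klb, a co-receptor for endocrine FGFs, by 2.68, Fgfr3 by 1.66 and Erbb3 by 1.08 log2 units) and 0 fell, and 5 were higher and 2 lower in the XEN-type lines (limma), the last being Fgfr2 at -1.92 and Erbb3 at -1.55. The shares over all genes given for the ligands apply here and to the lists that follow. Fgfr3 was at 0.363 FPKM in R1 ESC, 0.503 without dox, 3.80, 3.34 and 3.41 from 21 to 49 h, 35.0 at day 6, 91.5 in Sox17-XEN and 46.1 in wild-type XEN. Fgfr1 was at 36.7 and 44.1 FPKM in the ESC lines, 28.6 to 49.4 from 7 to 49 h, 8.55 at day 6, 6.76 in Sox17-XEN and 0.491 in wild-type XEN. Of Fgfr1 and Fgfr3, the former was thus the more abundant per length through 49 h and the latter from day 6 on. Fgfr2 was at 8.31 FPKM in R1 ESC, 10.7 without dox, 26.4 at 49 h and 37.8 at day 6, where it was above Fgfr3. In Sox17-XEN it was at 1.27 and in wild-type XEN at 2.35.

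Of 24 genes of the cascade from adaptors to ERK-activated kinases, limma called 0 in either direction at 21 to 49 h, and in the XEN-type lines 1 lower (Ksr1, a scaffold of the kinases, at -1.22) and 6 higher, among them the adaptor gene Frs2 at 2.31 and the kinase gene Braf at 1.97. Of 23 other brakes of the pathway, 0 were called at 21 to 49 h, and 3 were higher and 0 lower in the XEN-type lines: Flrt3 at 4.91, the phosphatase gene Dusp9 at 2.03 and the neurofibromin gene Nf1 at 1.61. That is near the 11.1% of all genes called higher. Flrt3 encodes a membrane protein that can bind FGF receptors. So none of these 23 genes passed as lower in the XEN-type lines, while Spry1 and Spry4 did, and the difference between the 2 sets was not tested. Dusp2 had an adjusted p of 0.0239 (limma) but a difference of -0.67, short of 1. It was at 0.614 and 0.603 FPKM in the ESC lines, where log2(FPKM + 1) understates a change. Between single libraries 5 of 23 were lower and 8 higher in wild-type XEN than in R1 ESC (16% and 25.7% of all genes). In Sox17-XEN 1 was lower and 3 higher than without dox (14.6% and 20.6%). Of 18 genes in a list of other ETS factors, which also holds the HMG-box repressor gene Cic (not called in either fit), 0 fell and 2 rose at 21 to 49 h (Elf3 by 2.29 and Ets1 by 2.14), and 2 were lower (Etv1 at -1.99 and Etv2 at -1.16) and 5 higher in the XEN-type lines. Etv1, the remaining member of the PEA3 group, was at 2.71 FPKM in R1 ESC, 4.13 without dox and 0.612, 0.166 and 0.0335 at day 6, in Sox17-XEN and in wild-type XEN.

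Across the 9 libraries, which share an engineered line in 7 cases, Pearson r of log2(FPKM + 1) was 0.94 for Spry1 with Etv4, 0.93 for Spry1 with Spry4 and for Etv4 with Etv5, 0.92 for Spry4 with Etv4 and 0.91 for Spry4 and for Spry1 with Etv5. Dusp4 and Dusp6 had an r of 0.25. Egr1 had an r of -0.70 with Spred2 and -0.67 with Dusp6. Among 9839 genes at 5 FPKM or more in some library, those most like Spry4 were Zfp710 (0.986), Jarid2 (0.983) and Ankrd6 (0.982), and those most like Etv5 were Fam203a (0.985), Hmga1 (0.982) and Glt1d1 (0.98). For Dusp6 they were Rtkn2 (0.972), Nlk (0.969) and Cdca7l (0.96), and for Egr1 Epb4.9 (0.972), Dnmt3a (0.971) and Chtf18 (0.945). For Etv5 the day 6 and XEN-type libraries were far below the rest, and such a split alone can give a high r. Egr1 and Dusp6 did not follow that split. No grouping of the 9 libraries was tested, and no r is given within a part of them.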

How the data were processed

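RNA sequencing of 9 mouse libraries, 1 per group, was analysed from the table deposited by the authors, which gives FPKM per gene with confidence bounds and a status. TopHat2 2.0.11, Cufflinks 2.1.2, Cuffdiff (version not given) and build mm9 are named in the submitters' processing notes. The use of strand is not given in the sources used here. No read counts were used and absolute depth is unknown. All value columns matched a labelled sample (0 others).

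The 10 genes and the gene lists were chosen with earlier results of these data known. Any value with a status other than OK was left out, rows with at least 1 FPKM in some library were kept, and values were used as log2(FPKM + 1). Such differences understate the change of low genes. Between single libraries, lower and higher mean a difference of at least 1 log2 unit, with no test. Tests used limma 3.58.1 (R 4.3.3) with empirical Bayes moderation and a mean trend, two-sided, with Benjamini-Hochberg adjustment over all genes. XEN-type against ESC lines and 21 to 49 h against ESC lines were called at an adjusted p under 0.05 and a difference of at least 1, and the slope over the course at the adjusted p alone. No group has replicates, so these p-values measure the spread between lines or successive times. The scripts were tested on simulated data.

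Named genes were the 10 genes, Sox17, and from each pathway list up to 5 genes by largest difference or by call, plus the 3 most correlated genes for Dusp6, Spry4, Etv5 and Egr1. Dppa5a, Pou5f1, Sox2, Nanog, Klf4, Klf5, Tbx3, Sparc, Lama1, Col4a1, Dusp2 and Cic were named after their values were seen. For symbols with 2 rows (Fgfr1, Flrt3 and Dab2) the higher row was used, and Hras was matched by its identifier. Egr1 overlaps a predicted gene listed at 0. Alternatives were pseudocount 0.1, no filter, rescaling, a threshold of 2 log2 units, R1 ESC as reference, non-overlapping bounds, no mean trend, time in hours and leaving out each library. Promoter windows came from RefSeq on GRCm38.p6 and were not joined to mm9 coordinates. Python 3.11.15, numpy 2.4.6, pandas 2.3.3 and matplotlib 3.10.9 were used.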

Additional observations from a re-analysis of the deposited data

Results flagged for a closer look

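Among the 10 genes, 3 differed in opposite directions between the XEN-type and ESC library of the wild-type lines and of the Sox17 line. Dusp4 was 1.03 log2 units higher in wild-type XEN than in R1 ESC and at -2.00 in Sox17-XEN against the line without dox. Dusp6 was at 0.94 in the wild-type pair and -1.83 in the Sox17 pair. Spred2 was at 0.69 and -0.78. Each value compares 1 library with 1, and the difference between the pairs was not tested.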

How the results depend on the processing

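No difference of the 10 genes that was past its threshold changed sign under the alternatives run. For single-library comparisons, 320 values stayed on their side of 1 log2 unit, 6 moved past it and 4 moved within it. Of the 320, 90 come from leaving out the filter, which cannot change the difference of a gene and so checks nothing here. The threshold of 2 log2 units and the confidence bounds are not part of these counts. At a threshold of 2 log2 units the genes lower numbered 0 at 7 h, 1 at 21 h, 2 at day 6, 5 in Sox17-XEN and 3 in wild-type XEN. Over all genes those lower were 51 of 15007, 67 of 15011, 578 of 14992, 749 of 14984 and 980 of 14974 in the same order. Of the 10 genes 0 were higher from 7 h to day 6, in Sox17-XEN or in wild-type XEN, beside 67 of all genes at 7 h and up to 1234 in wild-type XEN. Asking that the authors' confidence bounds not overlap left 0 of the 10 genes in every comparison. That outcome was fixed in advance, since each of their lower bounds is 0. Over all genes it left 2 lower and 7 higher of 14992 at day 6, 3 and 6 of 14984 in Sox17-XEN, and 4 and 3 of 14974 in wild-type XEN. Between the XEN-type lines it left 0 and 2 of 14979. With R1 ESC as reference, 1 gene was lower at 21 h, 3 at day 6 and 6 in Sox17-XEN, beside 579 of 14999, 1922 of 14985 and 2244 of 14976 over all genes. Those higher numbered 1 at 7 h and 2 at both 21 and 35 h, beside 444 of 14996, 919 of 14999 and 964 of 14985. Rescaling left 0 higher in wild-type XEN, beside 2491 of 14974 over all genes. In limma, XEN-type against ESC lines gave 5 genes lower after rescaling, beside 1534 of 14925 over all, and 1 without the filter, beside 154 of 37433. Where a library was left out of this fit, the lone line of its kind is assumed to vary like the other kind. At 21 to 49 h, no filter left 0 lower and 0 higher, beside 14 and 28 of 37443 over all, and leaving out the 21, 35 or 49 h library also left 0 and 0. Without the filter 37433 genes enter the first of these fits, in place of 14925. Without the mean trend 2 genes were called lower in the XEN-type lines, beside 1138 of 14925 over all. The slope with time in hours called 6 of the 10 lower (Dusp6, Spry1, Spry4, Spred1, Spred2 and Etv5), with 2033 genes lower and 4307 higher over all. The slope on rank called 0 of all genes with day 6 and also without it, so it cannot show whether the calls in hours rest on day 6. The slope in hours without day 6 was not run. No paired analysis was possible because the Sox17 line gives the 1 pair of XEN-type and ESC libraries from a shared line, R1 and IM8AR being separate lines. Relative depth, as estimated from low values, was lowest in the day 6 and XEN-type libraries, at 61.8% to 67.0% of R1 ESC. The ratio behind the estimate was shared by 6.53% to 6.9% of low values there. From no dox to 49 h it was shared by 8.45% to 12.3%. An effect of depth on the results was not tested.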
